A study of Mus musculus with 12 samples.

Results

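Interferon-induced genes were examined in whole kidneys of diabetic and non-diabetic mice with and without the chemokine-scavenging receptor D6. The set held 41 genes chosen by name as known targets of type I and type II interferons. Of these, 36 had a probe set annotated to that gene alone, out of 19936 genes with such a probe set. Isg15, Gbp2, Igtp and Irgm2 had only probe sets annotated to several genes, Ifi44 had no named probe set here, and these 5 genes have no value below. Mx1 lay under the signal filter on every array, between 4.52 and 5.03 on the log2 scale. The remaining 35 genes were among the 16480 genes tested.

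The OVE-D6 group (3 mice) carried both the OVE26 diabetes transgene and a homozygous deletion of D6, the product of Ackr2. The OVE group (3 mice) was diabetic with intact D6. The D6 group (3 mice) was non-diabetic and lacked D6, and the FVB group (3 mice) was non-diabetic with intact D6. All mice were on the FVB background and 6 months old. The D6 deletion came from C57BL/6 mice and was moved to FVB over at least 10 generations, so DNA beside the deleted gene can differ between knockouts and wild types. The OVE26 transgene acts in the pancreatic beta cell, and the kidney itself carries no targeted change in the OVE group. RNA from 1 kidney sample per mouse was hybridised to 1 array, and the small number of arrays limits the precision.

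Interferons are secreted signals made in response to viral nucleic acid, damaged cells or activated lymphocytes. Type I interferons act through a receptor of Ifnar1 and Ifnar2 to activate a complex that holds STAT2 and IRF9 and binds the interferon-stimulated response element (ISRE). Interferon gamma, the type II interferon, acts through Ifngr1 and Ifngr2 on genes that carry the gamma-activated site (GAS). The induced genes encode sensors of foreign nucleic acid, blockers of viral replication, GTPases that attack intracellular vacuoles, and the class I antigen presentation machinery.

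The promoters of the set carried the first of these elements often. In the RefSeq table of mouse promoters (GRCm38.p6, 250 bases before to 50 after each start), 30 of the 41 genes had a window. The ISRE core, spelled GAAA, then any 2 bases, then GAAA, and searched on both strands, was found for 15 of these 30 genes (50%), against 3.99% of all 27025 genes in the table. The GAS letters, TTC, then any 3 bases, then GAA, also searched on both strands, were found for 7 of the 30 (23.3%), against 9.55% of all genes. The ISRE and GAS letters overlapped in Bst2. A match describes these letters only and is not evidence of binding. The stretches below, 100 bases each, show the matches in capitals for 5 genes picked from those with a match. They are Ddx58 (1 ISRE core, just after the start), Ifit1 (2 cores), Irgm1 (2 cores that share bases), Rsad2 (1 core, in a gene that was not higher in OVE) and Irf1 (1 GAS match). Of these 5, only Ddx58 passed the test of OVE against FVB given below.
Ddx58, chr4:40239776-40239875, minus strand: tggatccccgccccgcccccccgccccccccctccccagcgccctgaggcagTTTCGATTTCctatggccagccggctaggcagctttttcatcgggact
Ifit1, chr19:34640749-34640848, plus strand: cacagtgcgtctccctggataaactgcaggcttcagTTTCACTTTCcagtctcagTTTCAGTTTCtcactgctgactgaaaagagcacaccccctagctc
Irgm1, chr11:48871393-48871492, minus strand: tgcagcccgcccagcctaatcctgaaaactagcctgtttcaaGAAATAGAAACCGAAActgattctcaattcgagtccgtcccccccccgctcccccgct
Rsad2, chr12:26456518-26456617, minus strand: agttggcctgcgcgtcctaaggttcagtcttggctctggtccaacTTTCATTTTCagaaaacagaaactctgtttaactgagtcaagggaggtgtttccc
Irf1, chr11:53769878-53769977, plus strand: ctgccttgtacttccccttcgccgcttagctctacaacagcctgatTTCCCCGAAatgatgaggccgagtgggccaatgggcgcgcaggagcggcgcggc
The windows of Oasl1, Oasl2, Lgals3bp and Tap1 held neither set of letters, so genes with and without a match stood among those that were highest in OVE. The tested genes with an ISRE core (11) had a median OVE minus FVB difference of 0.41 on the log2 scale, and the tested genes with neither motif (11) had a median of 0.43.

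All values below are log2 probe-set values, and levels are not compared between genes because probe sets differ in response. The 3 OVE arrays did not form a tight group. The first principal component of all tested genes (35.9% of the variance) placed OVE replicate 1 at 27.0, replicate 2 at 29.4 and replicate 3 at 6.9, with every array of the other groups at 5.2 or under. The counts over the set and over the gene lists are therefore also given without single OVE arrays. The 8 tested markers of kidney epithelium, among them Umod of the thick ascending limb and Slc34a1 of the proximal tubule, lay between 7.37 and 13.87 on all arrays. Ackr2 lay between 6.74 and 7.04 on the 12 arrays and passed the test in none of the comparisons. Which part of the gene its probe set covers relative to the deletion was not examined, so this does not check the labels.

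In OVE against FVB kidneys, 5 of the 35 interferon-induced genes rose and none fell (limma, Benjamini-Hochberg adjusted p under 0.05). They were Ddx58, the cytosolic RNA sensor RIG-I, the oligoadenylate synthetase family genes Oas2, Oasl1 and Oasl2, and Lgals3bp, a secreted galectin-3 binding glycoprotein. Among all genes tested, 7.28% passed, with 4.9% higher and 2.38% lower. At an unadjusted p under 0.05, 17 of the 35 were higher and none lower, where 12.9% of all genes were higher. The log2 difference was positive for 31 of the 35, with a median of 0.43 against -0.02 for all genes tested. The exceptions were Samd9l, Rsad2, Nlrc5 and Cmpk2. All OVE arrays lay above all FVB arrays for 10 of the 35, against 13.6% of all genes tested.

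Because the tissue was sampled in bulk, a change in the number of cells of a type cannot be told apart from a change in RNA per cell. Macrophage and monocyte markers moved with this comparison. Of 14 tested markers, 13 rose in OVE, including Lyz2, Cd68 and Adgre1, against 4.9% of all genes tested. The list's mean difference from the FVB mean was 1.61, 1.62 and 0.64 in OVE replicates 1, 2 and 3. In FVB it was 0.19, -0.10 and -0.10. The count of macrophage markers that rose was 9, 5 and 13 without OVE replicates 1, 2 and 3, and 11, 6 and 8 without FVB replicates 1, 2 and 3. Over all genes, 359 passed in either direction without OVE replicate 2 and 1901 without OVE replicate 3, and the other omissions lay between these. Lyz2 and Cd68 passed in each of these omissions. Adgre1 passed without FVB replicate 1, OVE replicate 1 or OVE replicate 3, and not in the others. The kidney epithelium markers moved the other way. Of the 8 tested, 7 had a negative OVE minus FVB difference, with a median of -0.26, and 4 had every OVE array under every FVB array, against 13.5% of all genes. At the adjusted threshold 3 fell, against 2.38% of all genes tested. They were Nphs1, the podocyte gene for nephrin (-0.62), Lrp2, the endocytic receptor megalin of the proximal tubule (-0.35), and Slc12a3, the thiazide-sensitive cotransporter (-0.38). The count that fell was 1, 0 and 3 without OVE replicates 1, 2 and 3, and 0, 1 and 0 without FVB replicates 1, 2 and 3. The part of either marker list in the interferon-induced values was not tested.

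**Figure D1:**
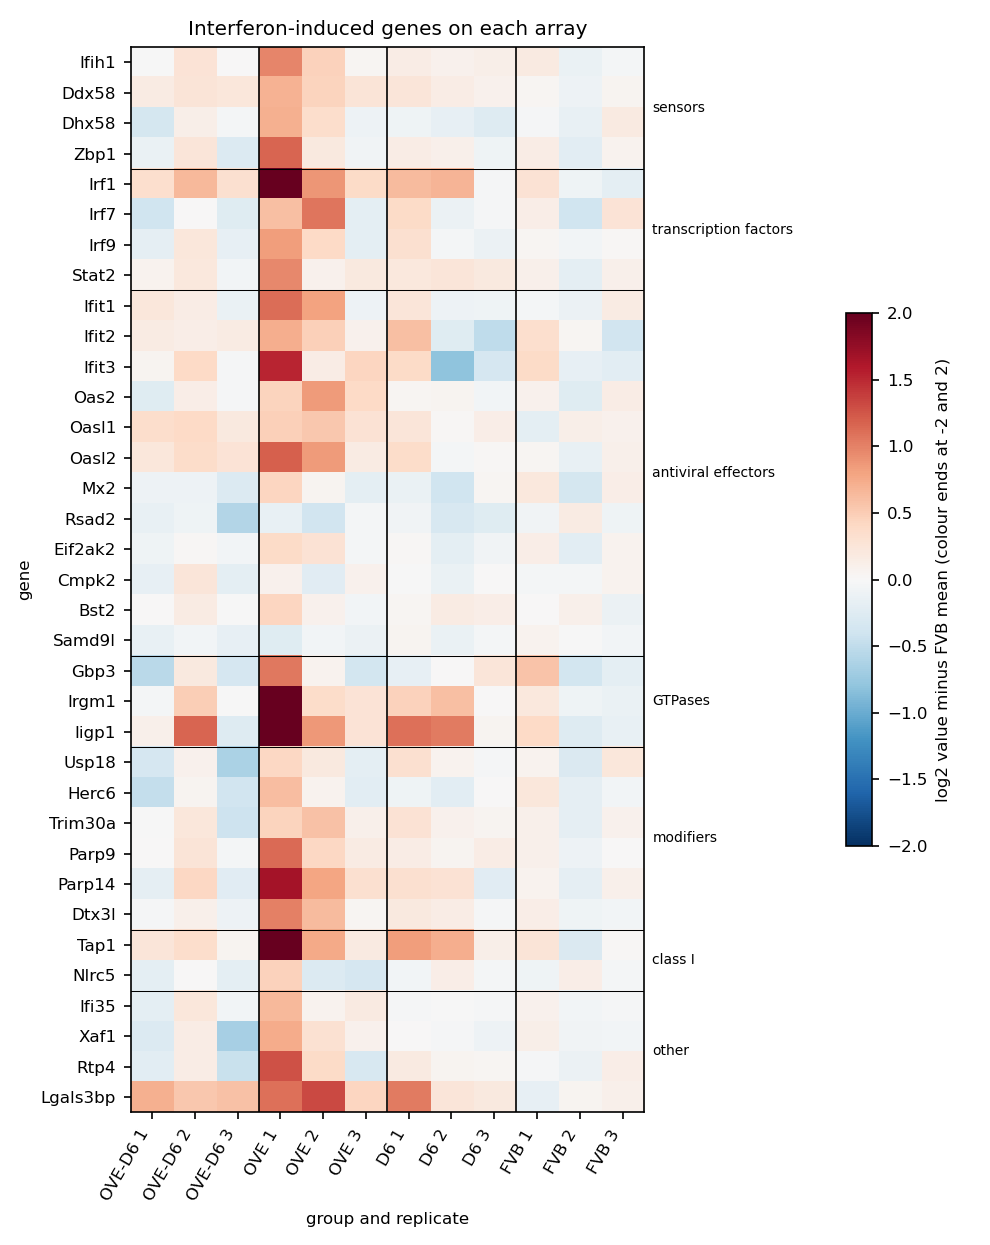
Each of the 35 tested genes (rows, grouped by role) on each of the 12 arrays (columns), as the log2 value minus the FVB mean of that gene, with red higher and blue lower and the colour ending at -2 and 2. OVE replicate 1 is the reddest column, OVE replicate 3 resembles the non-diabetic arrays for many genes, and the OVE-D6 columns are pale.

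The cytosolic sensors recognise viral nucleic acid and start interferon production. Ddx58 had 10.21, 9.96 and 9.77 in OVE kidneys, against 9.56, 9.42 and 9.57 in FVB kidneys. All OVE arrays lay above all FVB arrays. The difference was 0.46 ± 0.10 (SE, n = 3 per group), or 1.38-fold, with a limma adjusted p of 0.0188 (range over the alternatives 0.00277 to 0.0803). Ifih1, the sensor MDA5, had 8.41, 7.91 and 7.49 in OVE, against 7.62, 7.31 and 7.40 in FVB. Its OVE replicate 3 fell inside the FVB range, and its difference of 0.49 ± 0.18 did not pass (limma adjusted p = 0.115). Dhx58, the regulatory helicase LGP2, and Zbp1, a sensor of Z-form nucleic acid, differed by 0.32 and 0.43 without passing.

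The transcription factors of the response did not pass the test, although Irf1 showed a large difference. Irf1, which activates antigen presentation and other interferon gamma targets, had 9.45, 8.24 and 7.75 in OVE, against 7.65, 7.27 and 7.16 in FVB. The groups did not overlap, but OVE replicate 1 alone stood far above the others. The difference was 1.12 ± 0.34 (limma adjusted p = 0.0645). A further Irf1 probe set with a lower mean gave -0.12, and the average of both was 0.50. Irf7, the amplifier of type I interferon production, had 8.05, 8.51 and 7.25 in OVE, against 7.57, 7.04 and 7.71 in FVB. Here OVE replicate 2 was highest and OVE replicate 3 lay inside the FVB range. Irf9 and Stat2, partners in the ISRE-binding complex, differed by 0.35 and 0.41. Stat2 was high on 1 OVE array only, with 9.36, 8.48 and 8.59 in OVE, against 8.49, 8.19 and 8.50 in FVB.

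Of the 12 tested antiviral effectors, 3 rose, all of the oligoadenylate synthetase family, whose enzymatic members make the second messenger that activates RNase L. Oas2 had 7.00, 7.40 and 6.95 in OVE, against 6.64, 6.31 and 6.69 in FVB, a difference of 0.57 ± 0.14 or 1.48-fold (limma adjusted p = 0.0281, range over the alternatives 0.0164 to 0.106). Oasl1 had 7.52, 7.59 and 7.34 in OVE, against 6.85, 7.17 and 7.13 in FVB, a difference of 0.43 ± 0.11 (adjusted p = 0.0292 by limma, range 0.0134 to 0.109). Oasl2 had 9.02, 8.67 and 7.98 in OVE, against 7.86, 7.66 and 7.92 in FVB, a difference of 0.74 ± 0.20 (adjusted p = 0.0462 by limma, range 0.000648 to 0.141). The groups were separate for all 3 genes, but by only a small margin for Oasl2, whose OVE replicate 3 was close to the highest FVB array. In Oas2, unlike most of the set, OVE replicate 1 was not the highest array.

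The Ifit genes, which encode proteins that bind viral RNA and block its translation, were high on some OVE arrays. Ifit1 had 8.17, 7.86 and 6.95 in OVE, against 7.00, 6.93 and 7.21 in FVB. Replicates 1 and 2 of OVE lay above FVB and replicate 3 lay within its range. Ifit3 had 10.06, 8.68 and 8.96 in OVE, against 8.92, 8.37 and 8.32 in FVB, so only OVE replicate 1 stood well clear. The differences of 0.61 ± 0.24 for Ifit1 and 0.70 ± 0.34 for Ifit3 did not pass (limma adjusted p = 0.142 and 0.237). Ifit2 differed by 0.43. The Ifit, Oas and Gbp families hold close paralogs, and cross-hybridisation between their probes was not examined.

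Some antiviral genes showed little difference. Rsad2, which encodes viperin, an enzyme that makes a chain-terminating nucleotide, had 9.233, 8.998 and 9.337 in OVE, against 9.316, 9.537 and 9.286 in FVB (-0.19 ± 0.14). Its neighbour in that pathway, the nucleotide kinase gene Cmpk2, differed by -0.02, and Samd9l, a restriction factor of poxviruses, by -0.14. These 3 genes also followed the mean of the other members least over the 12 arrays, with Pearson r of -0.01 for Rsad2, 0.24 for Cmpk2 and -0.33 for Samd9l, against 0.97 for Ifih1. Eif2ak2, the RNA-activated kinase PKR, Bst2, the tether that holds budding virions, and Mx2, an antiviral dynamin-like GTPase, differed by 0.21, 0.16 and 0.10. Mx2 passed the signal filter on 5 of the 12 arrays.

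**Figure D2:**
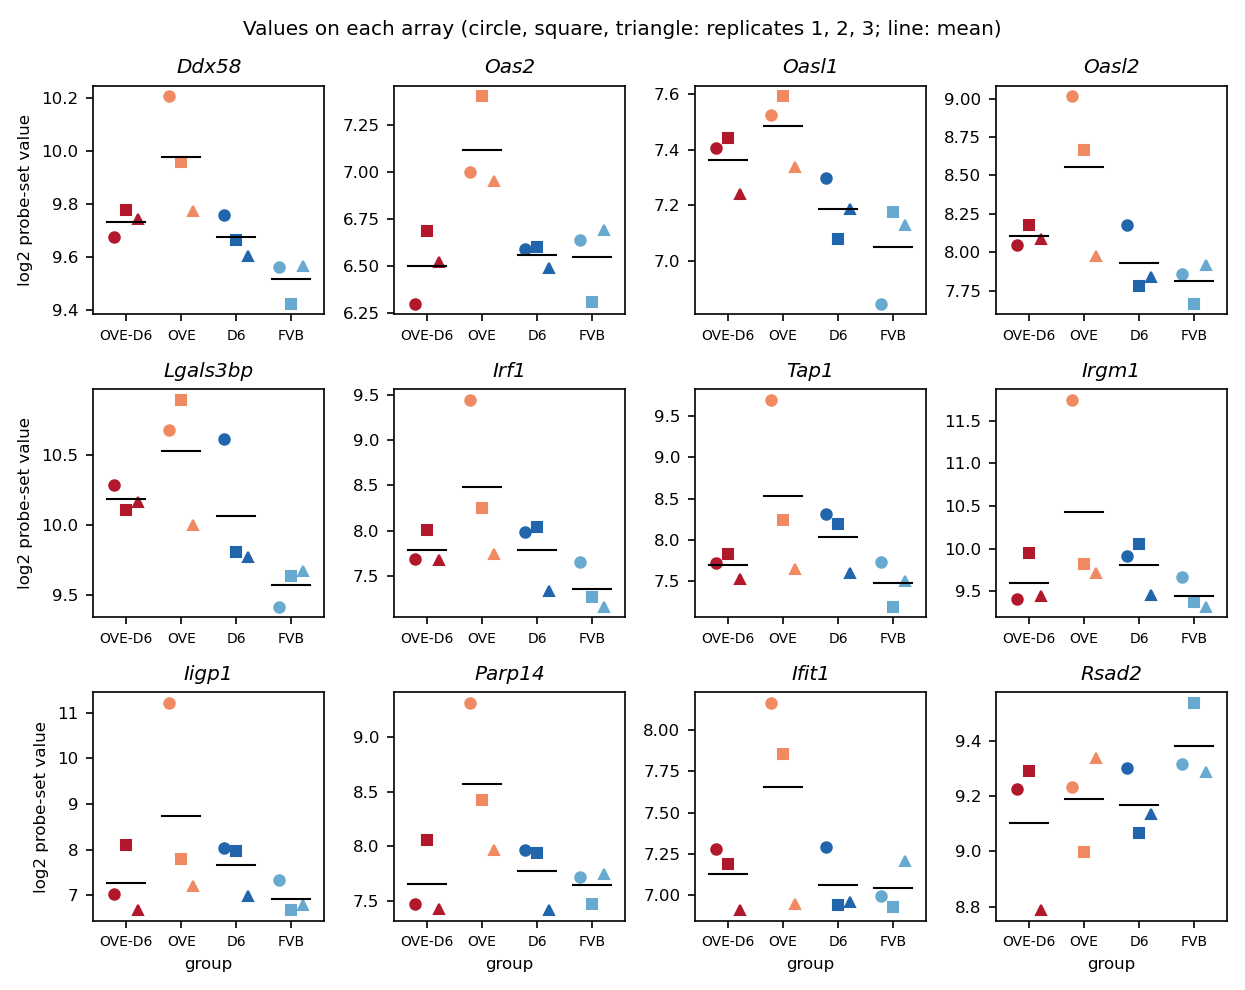
Log2 probe-set values (y axis, a separate scale for each gene) of 12 of the interferon-induced genes on every array, by group (x axis), with symbols for replicates 1, 2 and 3 and a line at the group mean. Iigp1 and Irgm1 are by far highest on OVE replicate 1, at 11.22 and 11.75, Oas2 is raised on all 3 OVE arrays, and Rsad2 is not higher in OVE.

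The interferon-inducible GTPases act on the membranes of vacuoles that hold intracellular pathogens, and in mice they respond strongly to interferon gamma. Iigp1 had 11.22, 7.79 and 7.20 in OVE, against 7.32, 6.67 and 6.78 in FVB. Irgm1 had 11.75, 9.82 and 9.72 in OVE, against 9.67, 9.37 and 9.32 in FVB. In both, OVE replicate 1 stood far above all other arrays, by 3.72 for Iigp1 and 1.98 for Irgm1 over the mean of the other OVE arrays. The differences were 1.81 ± 0.79 for Iigp1 and 0.98 ± 0.41 for Irgm1, and neither passed (limma adjusted p = 0.184 and 0.169). Without OVE replicate 1 they were 0.57 and 0.32. Gbp3 differed by 0.25.

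Among the ubiquitin-like and ADP-ribose modifiers none of 6 tested genes passed, while all 6 differences were positive. Parp14, an ADP-ribosyl transferase that supports interferon responses, had 9.32, 8.43 and 7.96 in OVE, against 7.72, 7.47 and 7.75 in FVB. The groups were separate and the OVE arrays were spread over a wide range, so its difference of 0.92 ± 0.28 did not pass (limma adjusted p = 0.069). It was 0.55, 0.99 and 1.23 without OVE replicates 1, 2 and 3. Parp9 and its ubiquitin ligase partner Dtx3l differed by 0.57 ± 0.19 and 0.56 ± 0.18. Usp18, the protease that removes ISG15 and restrains the type I receptor, differed by 0.14, and Herc6, the ligase that attaches ISG15 in mice, by 0.16. Trim30a, a tripartite motif protein, differed by 0.38.

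Tap1, a subunit of the peptide transporter for class I antigen presentation, had 9.69, 8.24 and 7.65 in OVE, against 7.74, 7.19 and 7.51 in FVB. OVE replicate 3 lay inside the FVB range, and the difference of 1.05 ± 0.39 did not pass (limma adjusted p = 0.120). It was 0.47, 1.20 and 1.49 without OVE replicates 1, 2 and 3. Nlrc5, the transactivator of class I genes, differed by -0.05 on the probe set with the highest mean. That probe set was the exception among the 19 annotated to Nlrc5. Of these, 18 had a positive difference, and the median over the 19 was 0.64.

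Lgals3bp showed the largest change among genes that passed. It had 10.68, 10.89 and 10.00 in OVE, against 9.41, 9.64 and 9.67 in FVB, a difference of 0.95 ± 0.23 or 1.93-fold (limma adjusted p = 0.0304, range over the alternatives 0.00315 to 0.118). OVE replicate 2 was highest and all OVE arrays exceeded FVB. Xaf1, a promoter of apoptosis, Rtp4, a chaperone of receptors, and Ifi35 differed by 0.38, 0.44 and 0.30 without passing.

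**Figure D3:**
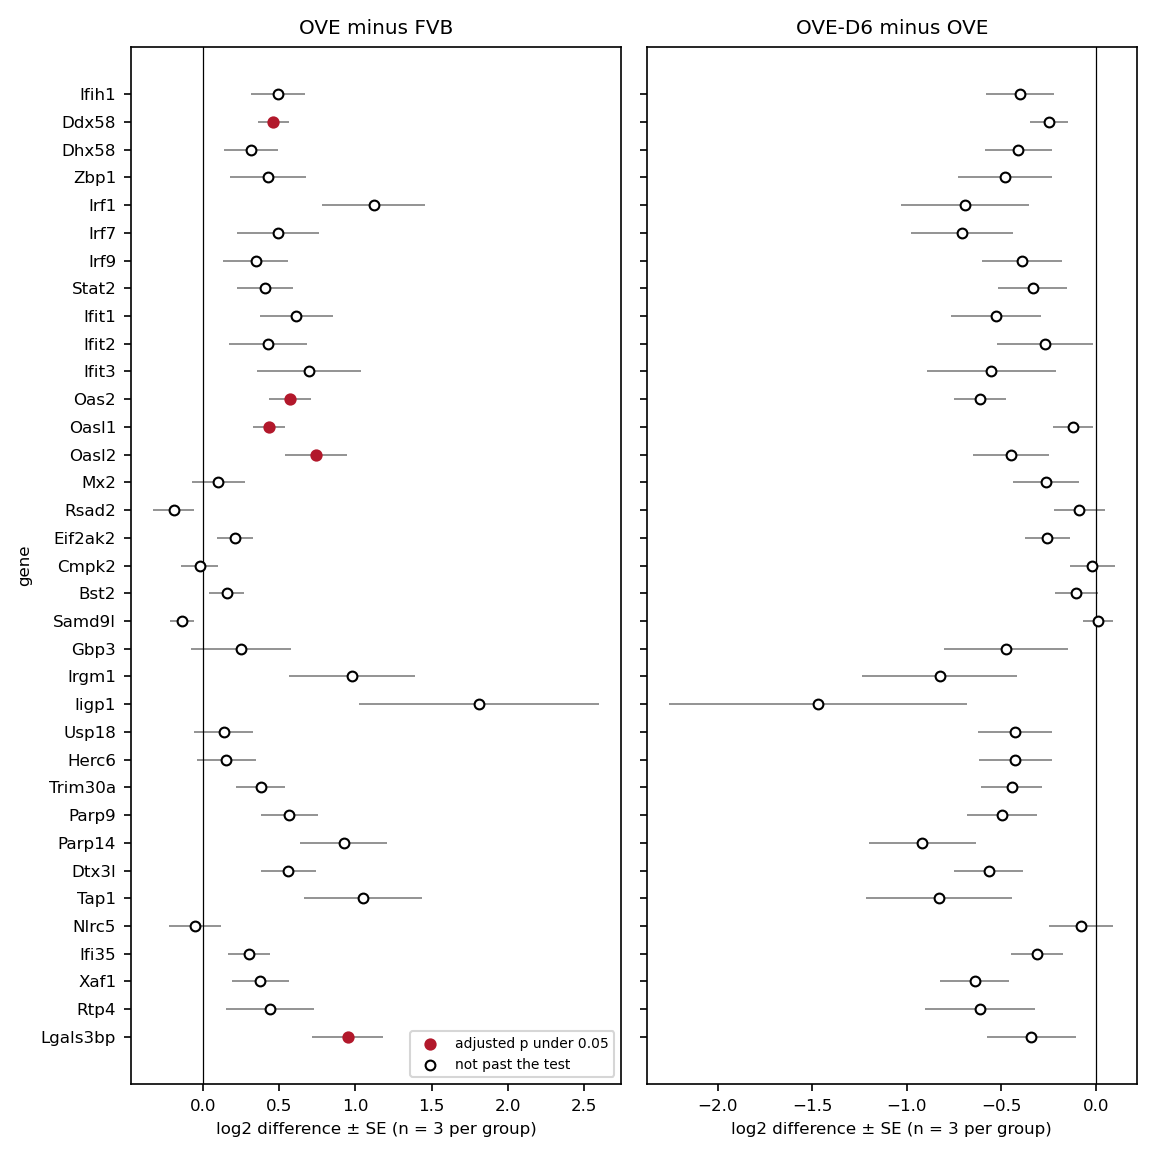
Log2 differences with standard errors (x axis) for OVE minus FVB and OVE-D6 minus OVE in each of the 35 genes (y axis), with filled points for genes past the limma adjusted threshold. In OVE minus FVB 31 of 35 points lie above 0 and 5 are filled, and in OVE-D6 minus OVE 34 of 35 lie under 0 and none is filled.

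The OVE arrays fell in the same order for most genes of the set. OVE replicate 1 was the highest of all 12 arrays for 27 of the 35 genes and OVE replicate 2 for 5. Among the 3 OVE arrays alone, replicate 1 was likewise highest for 27 of the 35, against 29.6% of all genes tested. OVE replicate 3 was the lowest OVE array for 29 of the 35. It lay within the FVB range for 16, above it for 14 and below it for 5. The shares of all genes for these counts of OVE replicate 3 were not computed. The mean difference of the 35 genes from the FVB mean was 0.97, 0.40 and 0.05 in OVE replicates 1, 2 and 3, against 0.11, -0.12 and 0.01 in FVB. The median SD within OVE was 0.464 for these genes and 0.123 for all genes tested. In FVB the medians were 0.163 and 0.096.

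The roles differed in how far replicates 1 and 2 stood apart. The 3 GTPases averaged 2.55, 0.43 and 0.06 above the FVB mean in OVE replicates 1, 2 and 3. The 12 antiviral effectors averaged 0.54, 0.29 and 0.08, and the 4 transcription factors 1.13, 0.61 and 0.05. The single GTPases lay between 1.05 and 4.29 above the FVB mean in OVE replicate 1 and between 0.07 and 0.86 in OVE replicate 2. Macrophage marker values are given above, and their part in the values of any role was not tested. The 6 tested T and NK cell markers averaged 0.63, 0.68 and 0.09, and the 2 tested B cell markers 1.39, 0.96 and 0.05. Siglech, a defining marker of plasmacytoid dendritic cells, which make type I interferon, lay between 5.83 and 6.35 on all arrays. For scale, the 95th percentile of the mean values of 1015 olfactory receptor genes, which the kidney is mostly not known to use, was 5.93.

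**Figure D4:**
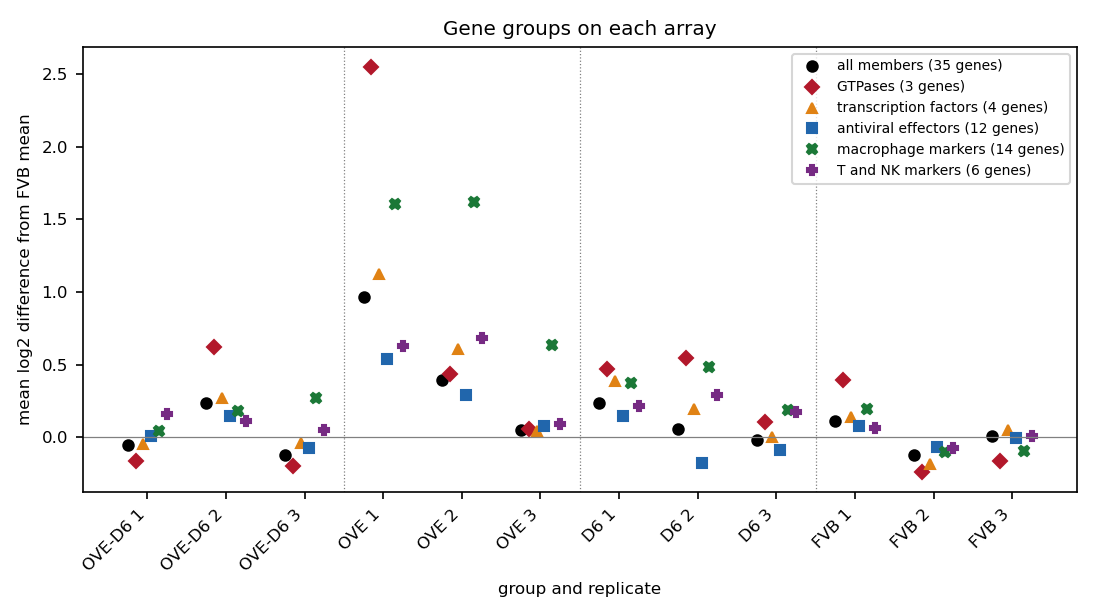
Mean log2 difference from the FVB mean (y axis) of gene groups on each array (x axis), with one symbol per group. In OVE replicate 1 the GTPases average 2.55 and the macrophage markers 1.61, and in OVE replicate 2 they average 0.43 and 1.62.

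The counts depended on which OVE array was left out. Without OVE replicate 1, 1 gene of the set passed in OVE against FVB (Oas2, limma adjusted p = 0.0435), and 716 genes passed overall. Without OVE replicate 2 no gene of the set passed and 359 passed overall. Without OVE replicate 3, 17 passed, all higher, among them Ifih1, Irf1, Irf7, Irf9, Ifit1, Iigp1, Tap1 and Rtp4. Over all genes 1901 then passed, against 1200 with all arrays. Leaving out an FVB array left 1, 1 and 0 of the set for FVB replicates 1, 2 and 3. Over all genes, every omission of 1 array gave between 359 and 1901 calls, those of FVB arrays included. The median difference of the set was 0.25 without OVE replicate 1 and 0.60 without OVE replicate 3.

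**Figure D5:**
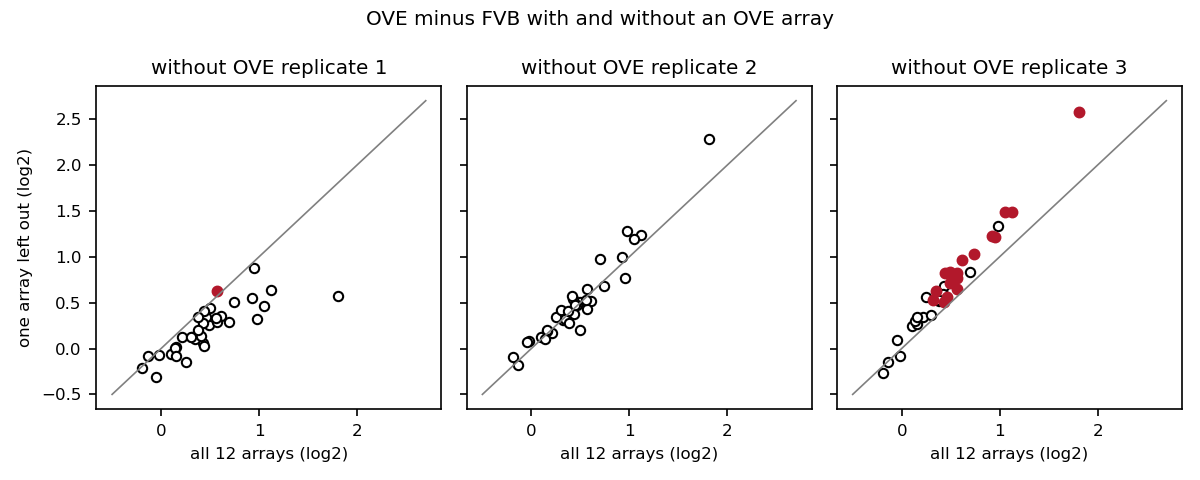
OVE minus FVB log2 difference of the 35 genes with all 12 arrays (x axis) against the same difference with 1 OVE array left out (y axis), with the diagonal marking equality and filled points passing the limma test in the reduced fit. Leaving out replicate 1 leaves 1 filled point, replicate 2 leaves none and replicate 3 leaves 17.

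In OVE-D6 against OVE kidneys, which asks whether loss of D6 altered the diabetic kidney, no interferon-induced gene passed the limma test in either direction. Among all genes tested 0.231% passed, with 0.0485% higher and 0.182% lower. At an unadjusted p under 0.05, 16 of the 35 were lower and none higher, where 8.13% of all genes were lower and 6.66% higher. The difference was negative for 34 of the 35, all but Samd9l, with a median of -0.43 against 0.01 for all genes. This comparison shares the OVE arrays with the comparison above, so the spread of those arrays enters both, and the opposite signs are not independent observations.

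Oas2 had the smallest adjusted p of the set. It had 6.30, 6.69 and 6.52 in OVE-D6, against 7.00, 7.40 and 6.95 in OVE, a difference of -0.61 ± 0.14 (limma adjusted p = 0.0893, range over the alternatives 0.0226 to 0.315). It was the only one of the 35 for which every OVE-D6 array lay under every OVE array, against 8.24% of all genes tested. Iigp1 had 7.02, 8.09 and 6.67 in OVE-D6, against 11.22, 7.79 and 7.20 in OVE. Its groups overlapped, since OVE-D6 replicate 2 exceeded OVE replicates 2 and 3, and the difference of -1.47 ± 0.79 did not pass.

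Other members followed a similar course. Parp14 had 7.47, 8.06 and 7.43 in OVE-D6, against 9.32, 8.43 and 7.96 in OVE (-0.92 ± 0.28, limma adjusted p = 0.176). Irf7 had 7.04, 7.44 and 7.19 in OVE-D6, against 8.05, 8.51 and 7.25 in OVE (-0.71 ± 0.27). OVE-D6 replicate 2 was above the lowest OVE array in both genes. Tap1 had 7.73, 7.84 and 7.53 in OVE-D6, against 9.69, 8.24 and 7.65 in OVE (-0.83 ± 0.39). Irgm1 had 9.42, 9.95 and 9.44 in OVE-D6, against 11.75, 9.82 and 9.72 in OVE (-0.83 ± 0.41). Irf1 had 7.69, 8.003 and 7.67 in OVE-D6, against 9.45, 8.24 and 7.75 in OVE (-0.69 ± 0.34). In all 3 genes OVE-D6 replicate 2 exceeded OVE replicate 3, so the groups overlapped. Xaf1 differed by -0.64 and Rtp4 by -0.61. Lgals3bp and Ddx58, which had risen in OVE, had differences of only -0.34 and -0.25, and Oasl1 of -0.12.

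These values again turned on the OVE arrays. Without OVE replicate 3, 12 of the 35 were lower in OVE-D6 at the adjusted threshold (Ifih1, Dhx58, Irf7, Irf9, Ifit1, Oas2, Oasl2, Parp9, Parp14, Dtx3l, Xaf1 and Rtp4), and 668 genes passed overall. Without OVE replicate 1 none passed and the median was -0.17. The OVE-D6 arrays stood close to FVB, with mean differences of the 35 genes from the FVB mean of -0.05, 0.23 and -0.12. Macrophage markers averaged 0.05, 0.18 and 0.27 in OVE-D6, against 1.61, 1.62 and 0.64 in OVE. Of the 14, 4 were lower at the adjusted threshold, against 0.182% of all genes tested. The count was 2, 2 and 13 without OVE replicates 1, 2 and 3. It was 0, 0 and 2 without OVE-D6 replicates 1, 2 and 3. The part of these markers in the interferon-induced values was not tested.

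In D6 against FVB kidneys, the comparison of D6 loss without diabetes, none of the 35 passed the limma test and none had an unadjusted p under 0.05. Among all genes 0.0121% passed and 3.82% had an unadjusted p under 0.05 (2.15% higher, 1.67% lower). Differences were positive for 24 and negative for 11, with a median of 0.08. Iigp1 had 8.03, 7.96 and 6.99 in D6, against 7.32, 6.67 and 6.78 in FVB, a difference of 0.73 ± 0.79. Tap1 had 8.31, 8.20 and 7.60 in D6, against 7.74, 7.19 and 7.51 in FVB, a difference of 0.56 ± 0.39. In both genes D6 replicates 1 and 2 were above FVB and D6 replicate 3 was within its range. All D6 arrays lay above all FVB arrays for Ddx58, Stat2 and Lgals3bp, 3 of 35 against 5.59% of all genes, and under all FVB arrays for none, against 4.2%. The 3 had differences of 0.16, 0.22 and 0.49. Lgals3bp had 10.61, 9.81 and 9.77 in D6, against 9.41, 9.64 and 9.67 in FVB. Irf1 had 7.98, 8.05 and 7.33 in D6, against 7.65, 7.27 and 7.16 in FVB, a difference of 0.43. Irgm1 had 9.91, 10.06 and 9.46 in D6, against 9.67, 9.37 and 9.32 in FVB, a difference of 0.36. For Irf1 and Irgm1, as for Iigp1 and Tap1, D6 replicate 3 lay within the FVB range. Ifit3 ran the other way, with 8.92, 7.73 and 8.19 in D6, against 8.92, 8.37 and 8.32 in FVB (-0.25), and its groups overlapped at the highest array of each.

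In OVE-D6 against D6 kidneys, the comparison of diabetes without D6, again none of the 35 passed or had an unadjusted p under 0.05. Among all genes 0.285% passed and 9.98% had an unadjusted p under 0.05 (4.78% higher, 5.2% lower). Differences were positive for 13 and negative for 22, with a median of -0.07. They ran between -0.41 for Usp18 and 0.40 for Ifit3. Usp18 had 7.04, 7.46 and 6.75 in OVE-D6, against 7.69, 7.44 and 7.35 in D6. Ifit3 had 8.59, 8.94 and 8.51 in OVE-D6, against 8.92, 7.73 and 8.19 in D6. The groups overlapped for these and for every other gene of the set, whereas among all genes 7.72% had every OVE-D6 array above every D6 array and 8.68% had every OVE-D6 array under every D6 array. Rtp4 had 6.51, 6.88 and 6.29 in OVE-D6, against 6.91, 6.79 and 6.77 in D6. Irf7 had 7.04, 7.44 and 7.19 in OVE-D6, against 7.83, 7.32 and 7.41 in D6, a difference of -0.29. OVE-D6 replicate 2 exceeded the lowest D6 array in both genes. Iigp1 and Tap1, whose arrays are given above, differed by -0.40 and -0.34.

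The interaction, the diabetes difference without D6 minus the diabetes difference with D6, tested whether those differ. No gene of the set passed the limma test, and none of all genes tested did (0%). At an unadjusted p under 0.05, 10 of the 35 were negative and none positive, where 9.99% of all genes passed, 3.71% positive and 6.29% negative. The estimate was negative for 32 of the 35, with a median of -0.53 against 0.01 for all genes. Oas2 had the smallest adjusted p, with an estimate of -0.63 ± 0.19 (limma adjusted p = 0.318). The largest estimates were -2.21 ± 1.11 for Iigp1, -1.39 ± 0.55 for Tap1, -1.19 ± 0.58 for Irgm1, -1.12 ± 0.48 for Irf1, -1.04 ± 0.40 for Parp14 and -0.83 ± 0.33 for Lgals3bp. Parp14 had 7.97, 7.94 and 7.41 in D6 and Lgals3bp had 10.28, 10.11 and 10.16 in OVE-D6, with their other arrays given above. Without OVE replicate 3, Dtx3l, Oasl2 and Ifit1 passed and 377 genes did overall. Without OVE replicate 1 the median was -0.28.

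Genes upstream in the pathway were compared in the same fits. Of 10 listed interferon ligands 4 were tested, and none rose in OVE over FVB. Ifng, which encodes interferon gamma, lay between 5.24 and 5.61 on all arrays, under the olfactory receptor percentile given above. Ifna5 was lower in OVE, with 8.11, 8.32 and 8.43 in OVE, against 8.56, 8.78 and 8.62 in FVB (-0.37 ± 0.09, limma adjusted p = 0.035). Of the 6 receptor genes, both chains of the interferon gamma receptor rose. Ifngr1 had 10.02, 10.28 and 9.75 in OVE, against 9.60, 9.51 and 9.59 in FVB (0.45 ± 0.11), and Ifngr2 had 10.35, 10.73 and 10.19 in OVE, against 9.90, 9.77 and 9.92 in FVB (0.56 ± 0.12). For both, OVE replicate 2 was the highest array, as it was for 5 of the 35 induced genes. The type I receptor chains Ifnar1 and Ifnar2 differed by 0.17 and 0.16 and did not pass. Ifngr2 passed without any single OVE array, with a difference between 0.41 and 0.68, but did not pass without FVB replicate 2. Ifngr1 and Ifna5 passed only in the omission of OVE replicate 3, among those of OVE and FVB arrays.

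Of the 4 tested genes that act directly at the receptors, Stat3 rose by 0.57 ± 0.10 (limma adjusted p = 0.00799) and Jak1, Jak2 and Tyk2 did not pass. Of 13 tested genes that sense danger and lead to interferon production, 3 rose, against 4.9% of all genes tested. They were Sting1, the adaptor of cytosolic DNA sensing, by 1.14 ± 0.15, the endotoxin receptor gene Tlr4 by 0.58 ± 0.16, and Irf8, a myeloid transcription factor, by 0.51 ± 0.11. Stat3 and Sting1 passed without any single OVE or FVB array, and Irf8 passed without any single OVE array but not without FVB replicate 2 or 3. Tlr4 passed only in the omission of OVE replicate 3, among those of OVE and FVB arrays. In all, 2, 2 and 7 of the 13 rose without OVE replicates 1, 2 and 3. Over all genes, 359 passed in either direction without OVE replicate 2 and 1901 without OVE replicate 3. None of 5 tested feedback inhibitors, Socs1 and Socs3 among them, passed. At an unadjusted p under 0.05, 1 of the 5 was higher, where 12.9% of all genes were higher. Without OVE replicate 1, 1 of the 5 rose in OVE over FVB and 1 fell in OVE-D6 against OVE. Without OVE replicate 2 or 3 none passed in either comparison. None of the ligands, receptors, receptor-proximal genes, inducers or inhibitors passed in the other 4 comparisons with all arrays. Without OVE replicate 3, 5 of the 13 inducers and 2 of the 6 receptor genes fell in OVE-D6 against OVE. In that fit 668 of all 16480 genes passed in either direction. Without OVE replicate 1 or 2 no inducer or receptor gene passed in this comparison.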

How the data were processed

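Per the labels' protocols, 100 ng of kidney RNA per mouse (integrity number above 8.8, average 9.1) was labelled for Affymetrix mouse gene arrays. The authors deposited log2 probe-set values. Their summarisation and normalisation are not given in the sources used here. Array medians lay between 6.84 and 6.93, so no scaling was added. The 35556 probe sets comprised 21789 with a single gene symbol, 1621 with more than 1 and 12146 unnamed here. Platform symbols were updated through the GRCm38.p6 gene table, and the probe set with the highest mean stood for a gene. Genes above the array's 25th percentile (5.30 to 5.40) on at least 3 arrays were tested with limma 3.58.1 in R 4.3.3, in 1 group-means model over 12 arrays with 5 contrasts, eBayes and Benjamini-Hochberg adjustment at 0.05 over all 16480 genes. The scripts were tested on simulated data. Figures used Python 3.11.15 and matplotlib 3.10.9.

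Arrays are separate mice, and p-values measure the spread between these mice alone. No 2 arrays held identical values (highest correlation 0.994). The members and lists were chosen with earlier results of these data known. Values on every array were given for members past the test and those with the 6 largest differences in a comparison, and for other members as illustration. From the pathway lists, ligands, receptors and receptor-proximal genes were open to naming, and otherwise up to 6 genes past the test with the largest difference. Alternatives changed the filter, normalisation, probe-set rule, variance model, arrays in the fit and threshold, included the replicate number as a block, and dropped the arrays one at a time. Dropping arrays from the counts over the pathway and marker lists was chosen after seeing the data.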

Additional observations from a re-analysis of the deposited data

How the results depend on the processing

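With 3 arrays per group, the number of interferon-induced genes past the threshold was sensitive to single arrays. In OVE against FVB it was 5, and leaving out each array in turn gave 0 to 17. It was 3 with a trended and robust variance, 9 with array weights, 0 with only the 2 groups compared, and 9 at an adjusted p of 0.10. Filters, quantile normalization and averaging probe sets gave 4 or 5. The all-gene counts for variance, weights, filters, normalization and probe-set averaging are not given for this comparison. Those counts of the set therefore describe the settings and not the genes. In OVE-D6 against OVE it was 0, and leaving out each array gave 0 to 12, with 1 at an adjusted p of 0.10. In the interaction it was 0, with 0 to 3 when each array was left out. The median difference ranged over these omissions between 0.25 and 0.60 for OVE minus FVB, -0.63 and -0.17 for OVE-D6 minus OVE, 0.03 and 0.12 for D6 minus FVB, -0.15 and -0.01 for OVE-D6 minus D6, and -0.72 and -0.28 for the interaction. No gene that passed in any of these fits had the opposite sign in the full fit. Of 732 values over genes and alternatives in each comparison of 2 groups, 11 turned sign in OVE minus FVB and 10 in OVE-D6 minus OVE. In D6 minus FVB 28 turned and in OVE-D6 minus D6 30. In the interaction 11 of 697 turned. The largest size in the full fit among the genes that turned was 0.25, 0.10, 0.25, 0.21 and 0.30 in the same order. None of the turned values passed. Many of the values could not turn. Filters, the variance model, the threshold, the block and the fit of only the 2 groups leave a gene's difference as it was. So does leaving out an array of a group outside the comparison. The share that turned therefore does not measure how stable the signs are. The cause of the changes in counts, medians and signs was not tested beyond the arrays left out.

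Over all genes, OVE against FVB gave 1200 calls, between 359 and 1901 when each array was left out, 440 with only the 2 groups compared and 2206 at an adjusted p of 0.10. OVE-D6 against OVE gave 38, between 1 and 668 with arrays left out, 91 with array weights, 0 with only the 2 groups compared and 151 at 0.10. OVE-D6 against D6 gave 47, between 17 and 74 with arrays left out, 76 with a trended and robust variance, 87 with array weights and 112 at 0.10. D6 against FVB gave 2, with 4 under array weights, 1 with only the 2 groups compared and 3 at 0.10. The interaction gave 0, and between 0 and 377 with arrays left out.

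Same-numbered arrays did not deviate together (correlations of deviations between -0.25 and 0.12, over 0.1 in 2 of 18 pairs), so the numbers were not taken to pair the mice. With the replicate number as a block, 6 interferon-induced genes passed in OVE against FVB and 0 in each other comparison. Each number occurs in every group, so the block changes the standard errors and cannot change a difference between groups or a median. Over all genes the block gave 971 calls in OVE against FVB, 7 in OVE-D6 against OVE and 3 in D6 against FVB. There were 29 in OVE-D6 against D6 and 0 in the interaction.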

Other observations

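Further interferon-induced genes outside the set showed the same order of OVE arrays. Of 62 listed genes 48 were tested, and 7 (against 4.9% of all genes tested) rose in OVE over FVB by limma at an adjusted p under 0.05. The count was 3, 1 and 20 without OVE replicates 1, 2 and 3, and 4, 2 and 3 without FVB replicates 1, 2 and 3. The 7 included Cxcl10 (1.92 ± 0.35, SE, n = 3 per group), a chemokine for activated T cells, Plac8 (0.95 ± 0.24), Cxcl11 (0.79 ± 0.16), Slfn2 (0.62 ± 0.17), Lgals9 (0.61 ± 0.13) and Serping1 (0.60 ± 0.16), the C1 inhibitor gene. At an unadjusted p under 0.05, 24 were higher and none lower, where 12.9% of all genes were higher. The list's mean difference from the FVB mean was 0.78, 0.40 and 0.08 in OVE replicates 1, 2 and 3, against 0.08, -0.06 and -0.02 in FVB. None passed in the other 4 comparisons with all arrays, and 10 were lower in OVE-D6 against OVE without OVE replicate 3. Some genes were high on OVE replicate 1 alone. Cd274, which encodes the checkpoint ligand PD-L1, had 9.49, 7.47 and 7.37 in OVE, against 7.38, 7.48 and 7.44 in FVB. Gbp4, a guanylate-binding protein gene, had 9.80, 7.11 and 6.95 in OVE, against 7.51, 6.84 and 6.83 in FVB. Psmb9, an immunoproteasome subunit gene, had 9.92, 8.08 and 7.98 in OVE, against 8.01, 7.78 and 7.68 in FVB. These 3 were chosen after their values were seen.

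Outside all lists, the 5 genes whose values over the 12 arrays were most like the mean of the 35 were Ciita (Pearson r = 0.98, Spearman rho = 0.92), the class II transactivator, Samhd1 (r = 0.95, rho = 0.80), a restriction factor that breaks down nucleotides, Tapbpl (r = 0.94, rho = 0.83), a peptide editor of class I molecules, Erap1 (r = 0.94, rho = 0.92), a peptide trimmer of the endoplasmic reticulum, and Gda (r = 0.94, rho = 0.85), guanine deaminase. Genes whose names start with Gm or end in Rik were left out of this ranking. The arrays of a group are not independent of each other in this measure. Without OVE replicates 1 and 2, the arrays farthest from the median, r was 0.87 for Ciita, 0.63 for Samhd1, 0.70 for Tapbpl, 0.89 for Erap1 and 0.72 for Gda.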
